A study of Mus musculus with 4 samples.

Results

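T1525 is a cell line grown from a prostate tumor of a TRAMP mouse, and its RNA was compared with that of whole normal mouse prostate. One probe per gene, the brightest over all 4 arrays of the series, was taken for all 15967 genes with a named probe. Every gene measured in the series is thus a member and none was chosen by its difference. The comparison used 3 of the 4 arrays of the series. The groups were T1525 (genotype TRAMP, strain C57Bl/6, 30 weeks of age, 1 array) and normal prostate (genotype WT, strain C57Bl/6, 18 weeks of age, 2 arrays, called normal 1 and normal 2). T23, another line from a TRAMP prostate tumor at 30 weeks with 1 array, is given beside them for some genes and was tested against nothing here. The labels do not say whether T1525 is a single clone, how it was grown, or if normal 1 and normal 2 are different mice. Each p-value thus measures only the spread between the 2 normal arrays, which may be technical.

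The TRAMP transgene joins a probasin promoter to the early region of the virus SV40. It makes the T antigens in prostate epithelium, where they bind and disable the Rb family and p53. The Rb proteins hold back the E2F factors, which drive the genes of DNA replication and mitosis. Normal prostate is a gland of luminal cells that secrete the fluid proteins, a layer of basal cells under them, and a wall of smooth muscle, fibroblasts, vessels and nerves. In a comparison of a line with whole tissue, fewer cells of a type and less RNA per cell cannot be told apart. Tumor, culture and age go together with the group and cannot be told apart either.

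Values are log2 intensities of the authors' normalized arrays, with normal 1 given before normal 2. An intensity of 104, or 6.70 on the log2 scale, was taken as the background threshold, and between 50.5% and 50.8% of the probes lay above it on each array. Of the 15967 genes, 10357 were above background in T1525 or on a normal array. Lower values were set to the threshold before a fold was taken, and such folds read "at least". Limma, with Benjamini-Hochberg adjustment over all 24613 probes and an adjusted p under 0.05, called 2003 genes higher (12.5%) and 1694 lower (10.6%) in T1525. Of the 10357 genes above background, 2001 were called higher and 1689 lower, larger shares than over all genes. By size alone, 1518 genes (9.51%) lay at least 2-fold above both normal arrays and 1501 (9.4%) at least 2-fold below both. Of the genes called lower, 791 were at background in T1525, and 326 of those called higher were above background in T1525 only. The deposited arrays already had close medians over all probes, at intensities of 105.5 in T1525, 106.2 in normal 1 and 106.3 in normal 2. Scaling to equal medians, or median scaling, used the medians of the probes above background on every array of the series. With it the calls were 1284 higher and 1954 lower. The median difference of the detected genes moved from 0.11 to -0.19, so small differences in either direction turn on the scaling. An exact permutation test of 1 array against 2 cannot give a one-sided p below 0.333 and was not used.

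**Figure D1:**
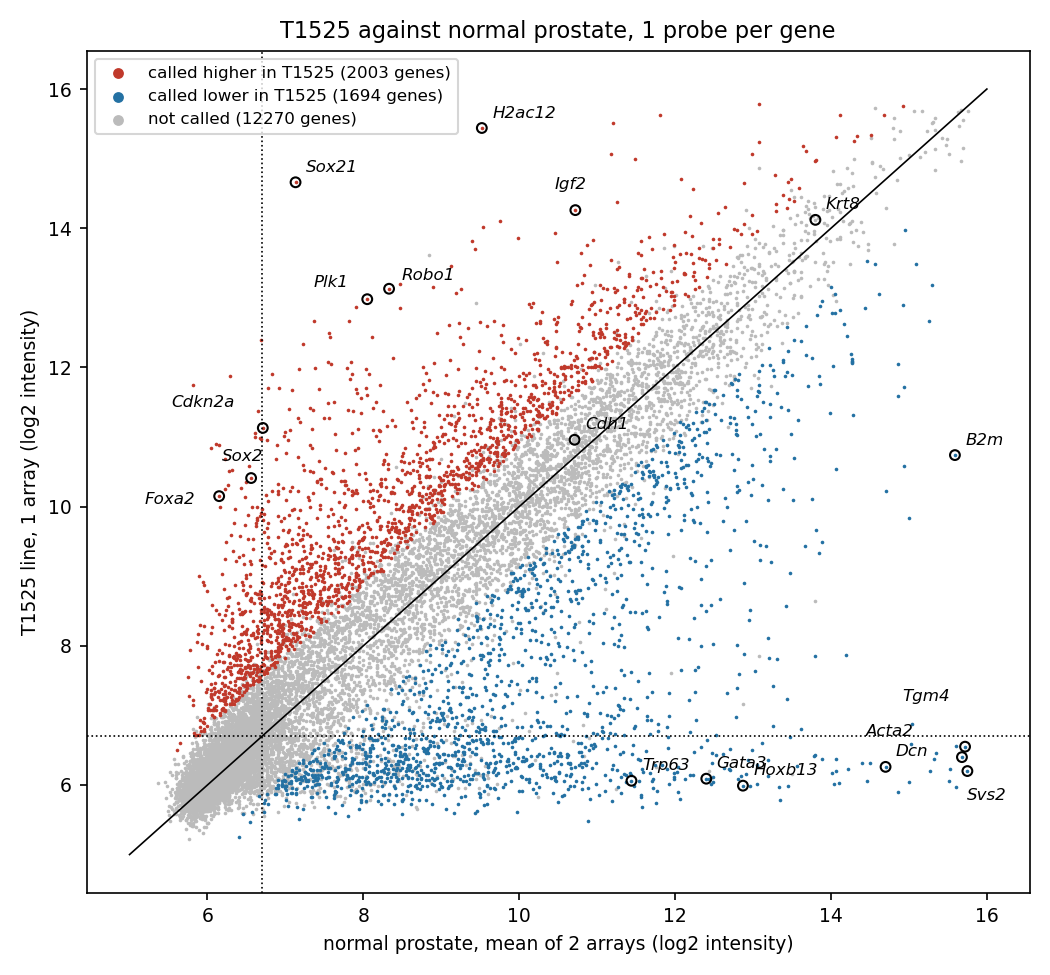
Each point is 1 gene, with the mean log2 intensity of the 2 normal prostate arrays on the x axis and the log2 intensity of the T1525 array on the y axis. Red points are the 2003 genes called higher in T1525, blue the 1694 called lower and grey the rest. The line marks equal values and the dotted lines the background threshold of 6.70. Svs2, Tgm4 and Acta2 lie at background in T1525 and near the top of the scale in normal prostate, while Krt8 and Cdh1 lie by the line.

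Genes of DNA replication and mitosis had the highest shares of members called higher among the 35 lists and 30 families. Of 27 measured genes of mitosis, 21 were called higher and 0 lower, with a median difference of 4.06, against 0.00 over all genes. Of 25 genes of DNA replication and nucleotide supply, 22 were called higher and 0 lower, with a median of 3.14. The same counts were found after scaling to equal medians and after cyclic loess. In T23 the medians of the lists were 3.40 and 2.85.

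Plk1, the kinase that starts spindle assembly, was 12.98 in T1525, against 8.22 and 7.88 in normal prostate, 30.5-fold higher (limma, SE 0.23, adjusted p = 0.00301). Tpx2, which brings Aurora A kinase to the spindle, was 12.34 in T1525, against 7.29 and 7.15 in normal prostate, 34.8-fold higher (adjusted p = 0.00298). Spag5, a spindle protein of the kinetochore, was 12.50 in T1525, against 7.64 and 7.48 in normal prostate, 30.7-fold higher (adjusted p = 0.00298). In each case the normal arrays lay close together and far below T1525. Birc5, a subunit of the chromosomal passenger complex that also inhibits apoptosis, rose 28.9-fold (adjusted p = 0.003), and its kinase partner Aurkb 27.8-fold (adjusted p = 0.00298). Stmn1, which takes microtubules apart, was 12.43 in T1525, against 7.66 and 7.48 in normal prostate (29.1-fold, adjusted p = 0.00298), and 9.36 in T23. Mcm5, part of the helicase that opens DNA at origins, was 13.70 in T1525, against 9.33 and 9.54 in normal prostate (19.3-fold, adjusted p = 0.00301). Uhrf1, which carries DNA methylation through replication, rose 14.6-fold, and Tyms, thymidylate synthase, 13.5-fold (adjusted p = 0.00363 and 0.00303). E2f1, the factor that Rb restrains, was 11.56 in T1525, against 8.10 and 7.85 in normal prostate (12-fold, adjusted p = 0.00382).

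Promoters of mitotic genes are known for 2 short elements, the CHR (TTTGAA) and the CCAAT box, which the DREAM and NF-Y complexes bind. The 250 bases before the first RefSeq start (GRCm38.p6) were searched on both strands for these letters, and 12848 of the 15967 genes had a promoter in the table. CCAAT was found in 11 of the 15 mitosis genes called higher that had a promoter (73.3%), against 36% of all promoters. The CHR was found in 4 of the 15 (26.7%), each of which also held CCAAT, against 13.7% with the CHR and 5.01% with both elements among all promoters. E2F motifs (TTTCCCGC or TTTCGCGC or TTTGCCGC or TTTGGCGC) were found in 5 of 19 DNA replication genes called higher (26.3%), against 2.68% of all promoters. They were found in 1 of the 15 mitosis genes (6.67%). CCAAT was also found in 11 of the 19 DNA replication genes (57.9%), and the CHR in 1 of the 19 (5.26%). A match describes the letters only and is no evidence of binding. The 4 mitosis genes with both elements were Top2a, Cdk1, Cdc20 and Ube2c. The 150 bases before their starts are shown because they carry these elements, 5′ to 3′ on the gene's strand, with the CHR and the CCAAT box, read on either strand, in capitals.
Top2a (chr11:99024190-99024339, minus strand): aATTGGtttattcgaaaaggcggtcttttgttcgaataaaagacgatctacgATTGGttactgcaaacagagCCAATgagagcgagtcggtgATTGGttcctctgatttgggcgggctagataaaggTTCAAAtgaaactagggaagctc
Cdk1 (chr10:69352913-69353062, minus strand): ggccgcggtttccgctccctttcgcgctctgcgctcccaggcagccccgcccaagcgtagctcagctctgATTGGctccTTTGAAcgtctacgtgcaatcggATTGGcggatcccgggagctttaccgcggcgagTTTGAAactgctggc
Cdc20 (chr4:118437344-118437493, minus strand): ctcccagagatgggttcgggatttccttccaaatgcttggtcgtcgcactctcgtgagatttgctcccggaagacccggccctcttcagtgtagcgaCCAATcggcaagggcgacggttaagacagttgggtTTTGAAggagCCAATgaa
Ube2c (chr2:164769779-164769928, plus strand): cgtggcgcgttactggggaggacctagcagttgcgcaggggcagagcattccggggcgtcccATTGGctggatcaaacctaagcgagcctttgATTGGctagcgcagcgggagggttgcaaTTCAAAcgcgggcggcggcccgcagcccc
These 4 genes were picked for the elements after their values were seen. Top2a, the topoisomerase that untangles chromosomes, was 12.85 in T1525, against 8.68 and 8.25 in normal prostate, and Cdk1, the mitotic kinase, was 12.08 in T1525, against 7.96 and 7.72 in normal prostate. Cdc20, an activator of the anaphase-promoting complex, was 11.91 in T1525, against 8.24 and 7.48 in normal prostate. Ube2c, the ubiquitin-conjugating enzyme of that complex, was 9.0 in T1525, against 5.77 and 6.02 in normal prostate, both at background.

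Of 22 genes of the Rb family, the E2F factors and the inhibitors of cyclin-dependent kinases, 10 were called higher and 1 lower. Cdkn2a, which encodes p16 and p19Arf, was 11.13 in T1525, against 6.56 and 6.86 in normal prostate, at least 20.4-fold higher (limma, SE 0.22, adjusted p = 0.00315). It was 6.68 in T23, at the background threshold. Rbl1, the Rb relative p107, rose 5.19-fold (adjusted p = 0.00591). Rb1 was 9.65 in T1525, against 8.72 and 8.38 in normal prostate (2.15-fold, adjusted p = 0.0428), a call lost with median scaling and cyclic loess (adjusted p = 0.0712 and 0.0696, within 0.038 to 0.0712 over the alternatives). Ccnd1, cyclin D1, was the gene called lower: 12.12 in T1525, against 14.18 and 14.36 in normal prostate (4.42-fold, adjusted p = 0.00776). Of 16 genes of the p53 pathway, 3 were called higher and 1 lower as deposited, and 1 and 1 with either other scaling. Phlda3, a p53 target that restrains Akt, rose 5.20-fold (adjusted p = 0.0164). Cdkn1a, the inhibitor p21, was 11.30 in T1525, against 8.38 and 9.94 in normal prostate, and was not called (adjusted p = 0.113). Its other probe was 11.94 in T1525, against 8.50 and 9.39 in normal prostate, and was called (adjusted p = 0.0173). That probe is the dimmer of the pair only when T23 is counted. Fas, the death receptor, was at background in T1525, at 6.67, against 8.86 and 8.76 in normal prostate, at least 4.32-fold lower (adjusted p = 0.00724).

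Histone genes of the replication clusters, which are transcribed in S phase, were called higher in 24 of 48 and lower in 2, with 17 higher after median scaling. H2ac12 was 15.44 in T1525, against 9.28 and 9.76 in normal prostate, 60.8-fold higher (adjusted p = 0.003). H2ac10 was 15.51 in T1525, against 10.87 and 11.54 in normal prostate, 19.8-fold higher (adjusted p = 0.00611). H2ac19 was 9.21 in T1525, against 13.59 and 12.87 in normal prostate, 16.2-fold lower (adjusted p = 0.0074). Members of this family are near-identical in sequence, so a probe may take RNA of several of them. Of 23 Polycomb group and DNA methylation genes 8 were called higher and 1 lower. Ezh2, the Polycomb methyltransferase, rose 10.6-fold (adjusted p = 0.00684), and Dnmt1, the maintenance DNA methyltransferase, 8.94-fold (adjusted p = 0.0047). Dnmt3b, a de novo DNA methyltransferase, was 10.94 in T1525, against 8.21 and 8.19 in normal prostate (6.65-fold, adjusted p = 0.00465), and 8.62 in T23. Cbx7, a Polycomb reader, was the gene called lower, at 9.60 in T1525, against 11.75 and 11.28 in normal prostate. Of the subunits of the proteasome 16 of 37 were called higher and 0 lower, led by Psmd14 (5.56-fold, adjusted p = 0.00569), and of the proteins of the mitochondrial ribosome 23 of 73 were higher and 1 lower. After scaling to equal medians these counts of higher genes were 10 and 15.

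**Figure D2:**
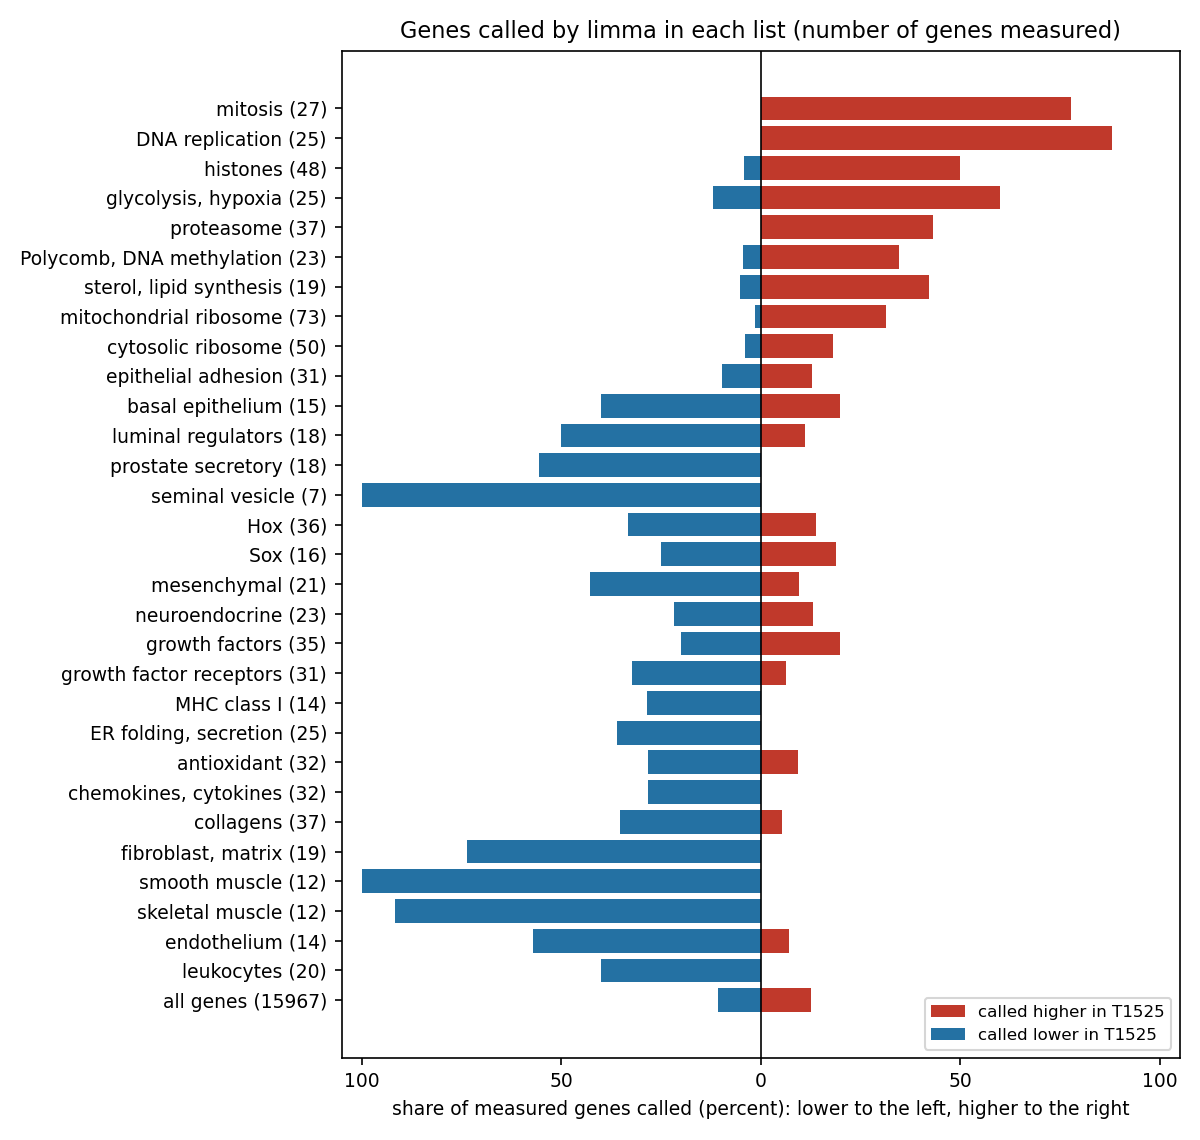
Each bar gives the percent of the measured genes of a list that limma called higher (right, red) or lower (left, blue) in T1525 than in normal prostate, with the number measured in parentheses. The bottom bar is all 15967 genes, of which 12.5% were called higher and 10.6% lower. Cell division lists stand to the right, and muscle, matrix and secretory lists to the left.

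Genes for the products of the normal gland were at background in T1525. Of 18 prostate secretory genes 10 were called lower and 0 higher, and 1 of the 18 was above background in T1525, against all 18 in normal prostate. The intensities of the list summed to 1415 in T1525, against 276188 and 143847 in normal prostate. Tgm4, the prostate transglutaminase, was 6.55 in T1525, against 15.69 and 15.75 in normal prostate, at least 518-fold lower (in limma, SE 0.18, adjusted p = 0.00209). Msmb, the microseminoprotein, was 6.46 in T1525, against 15.72 and 14.98 in normal prostate, at least 400-fold lower (adjusted p = 0.00298). Defb50, a defensin, was 6.38 in T1525, against 15.57 and 15.08 in normal prostate, at least 393-fold lower (adjusted p = 0.00298). Spink1, a trypsin inhibitor, was 6.23 in T1525, against 15.44 and 13 in normal prostate, at least 184-fold lower (adjusted p = 0.0154). Its fold was at least 78.7 without normal 1 and at least 428 without normal 2. Pbsn, probasin itself, was at background in T1525, at 5.48, against 11.31 and 10.45 in normal prostate (adjusted p = 0.00564).

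The seminal vesicle is a neighbouring gland. All 7 of its measured secretory genes were called lower, and all 7 were at background in T1525. Svs2, semenogelin, was 6.20 in T1525, against 15.73 and 15.78 in normal prostate, at least 530-fold lower (adjusted p = 0.00209). Svs4 and Svs5 were at least 478-fold and 481-fold lower (adjusted p = 0.00209 each). The labels call the normal tissue prostate, and both arrays carried Svs2, Svs4 and Svs5 near the top of the scale. Over the 7 genes the median was 13.72 in normal 1 and 14.29 in normal 2. The smallest log2 difference among the 7 was -1.24.

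Regulators of luminal prostate cells were more often called lower than higher. Of 18 luminal regulators and androgen-linked genes 2 were called higher and 9 lower, and after scaling to equal medians 0 higher and 11 lower. Hoxb13, the homeobox factor of prostate and hindgut, was 5.99 in T1525, against 13.45 and 12.28 in normal prostate, at least 71.6-fold lower (in limma, SE 0.53, adjusted p = 0.00597). Its fold was at least 47.6 without normal 1 and at least 108 without normal 2. Gata3 was 6.09 in T1525, against 12.49 and 12.31 in normal prostate, at least 51.9-fold lower, and Gata2 was 7.42 in T1525, against 13.29 and 13.21 in normal prostate, 57.0-fold lower (adjusted p = 0.00298 each). Both are zinc finger factors that work with the androgen receptor in luminal cells. Tmprss2, an androgen-driven membrane protease, was 8.37 in T1525, against 12.98 and 12.91 in normal prostate, 23.9-fold lower (adjusted p = 0.00298). Foxa1, the pioneer factor that opens chromatin for the androgen receptor, was still well above background: 10.62 in T1525, against 12.74 and 12.18 in normal prostate, 3.57-fold lower (adjusted p = 0.0249). It was 6.26 in T23. Elf3 and Klf5, epithelial factors of the Ets and Krüppel-like families, were the members called higher. Neither was called higher after median scaling or cyclic loess. Elf3 was 11.13 in T1525, against 8.05 and 9.22 in normal prostate (5.61-fold, adjusted p = 0.0445), and its fold was 3.74 without normal 1 and 8.43 without normal 2.

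Genes of epithelial cells in general were kept above background in T1525. Of 31 genes of epithelial keratins, junctions and adhesion, 28 were above background in T1525, 18 lay within 2-fold of both normal arrays or between them, 4 were called higher and 3 lower, and the median difference was 0.25. In T23, 9 of the 31 were above background and the median was -2.77, a difference between the lines that was not tested. The summed intensity of the list was 98892 in T1525, against 85659 and 102241 in normal prostate. Krt8, the keratin of luminal cells, was 14.12 in T1525, against 13.55 and 14.06 in normal prostate (adjusted p = 0.533). Krt18, its partner, was 13.01 in T1525, against 13.82 and 13.40 in normal prostate (adjusted p = 0.195). Cdh1, E-cadherin, was 10.96 in T1525, against 10.67 and 10.74 in normal prostate (adjusted p = 0.436). In T23 these were 5.98, 8.94 and 6.37. Esrp1, a splicing factor of epithelial cells, was 11.81 in T1525, against 12.05 and 11.47 in normal prostate, and Grhl2, an epithelial transcription factor, was 10.66 in T1525, against 10.63 and 10.54 in normal prostate. A p that misses the threshold does not show that such levels were equal.

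Among the junction genes Pkp1, plakophilin of the desmosome, was 10.61 in T1525, against 7.95 and 8.55 in normal prostate, 5.15-fold higher (adjusted p = 0.0156). Dsg2, a desmosomal cadherin, was 9.28 in T1525, against 7.92 and 7.80 in normal prostate, 2.68-fold higher (adjusted p = 0.0157). Pkp2, another plakophilin, and Crb3, of the apical polarity complex, made up the 4 members called higher. Claudins, the strands of tight junctions, went the other way: 8 of 19 were called lower and 0 higher. Cldn10 was 5.99 in T1525, against 13.77 and 13.13 in normal prostate, at least 107-fold lower (adjusted p = 0.003), although 2 dimmer probes of it were not called. Cldn1 fell at least 21.1-fold (adjusted p = 0.00298), and Cldn3 was 9.14 in T1525, against 12.65 and 12.12 in normal prostate, 9.53-fold lower (adjusted p = 0.00742). Cldn7, at 10.59 in T1525, against 10.06 and 9.94 in normal prostate, was not called (adjusted p = 0.113).

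Of 15 basal genes 12 were above background in T1525, 3 were called higher and 6 lower, and 1 and 6 after scaling to equal medians. Trp63, the p63 factor that makes the basal layer, was 6.06 in T1525, against 11.29 and 11.59 in normal prostate, at least 26.8-fold lower (adjusted p = 0.00298). Krt5, the basal keratin, was 6.45 in T1525, against 9.23 and 10.66 in normal prostate, at least 9.46-fold lower (adjusted p = 0.0313). Krt15 was 8.03 in T1525, against 11.82 and 13.14 in normal prostate, 21.9-fold lower (adjusted p = 0.0155). The normal arrays differed for both: without normal 1 and without normal 2 the folds were at least 15.6 and at least 5.75 for Krt5, and 34.6 and 13.8 for Krt15. Krt14, which pairs with keratin 5, was 13.72 in T1525, against 11.86 and 13.08 in normal prostate, and was not called (adjusted p = 0.211). Lamb3, a chain of laminin 332 in the basement membrane, was 12.63 in T1525, against 10.14 and 10.80 in normal prostate, 4.46-fold higher (adjusted p = 0.0218), and its partner chain Lama3 was 2.32-fold higher (adjusted p = 0.0226).

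**Figure D3:**
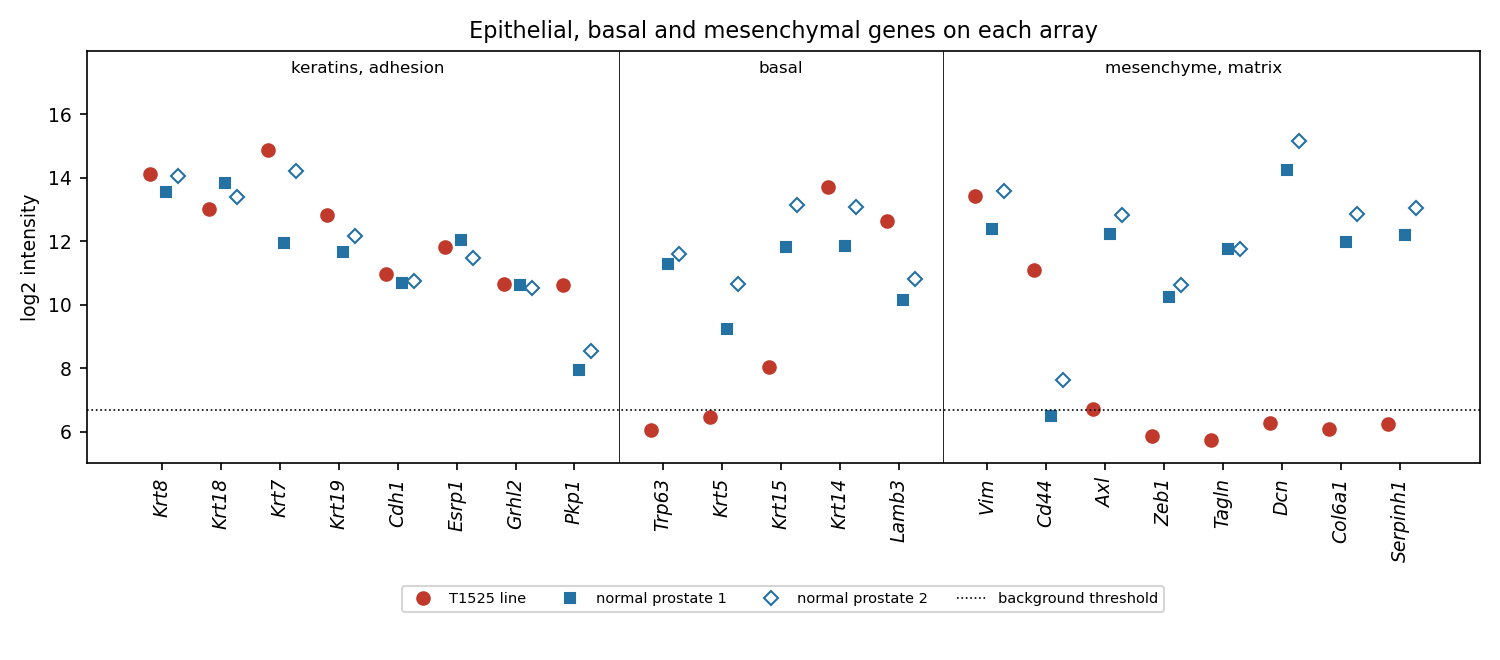
Log2 intensity (y axis) of 21 genes on each array: red circles T1525, filled squares normal 1, open diamonds normal 2. The dotted line is the background threshold of 6.70. Keratins 8, 18, 7 and 19 and E-cadherin overlap or lie close to normal prostate, Trp63 and most matrix genes lie at background in T1525, and Cd44 lies above both normal arrays.

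The genes of mesenchyme and matrix were mostly at background in T1525. Of 21 mesenchymal genes and factors of epithelial-mesenchymal transition 2 were called higher and 9 lower, with 9 above background in T1525 and 20 in T23. Axl, a receptor kinase of mesenchymal cells, was 6.72 in T1525, against 12.23 and 12.84 in normal prostate, 56.2-fold lower (in limma, SE 0.32, adjusted p = 0.00349). It was 14.39 in T23. Zeb1, a repressor of E-cadherin, was 5.88 in T1525, against 10.24 and 10.61 in normal prostate, at least 13.2-fold lower (adjusted p = 0.00339), and 10.73 in T23. Tagln, transgelin, was 5.74 in T1525, against 11.76 on both normal arrays, at least 33.2-fold lower (adjusted p = 0.00298). Thy1, a surface protein of fibroblasts, was at least 29.3-fold lower (adjusted p = 0.00327). Cd44, the hyaluronan receptor, was one of the pair called higher, at 11.10 in T1525, against 6.51 and 7.62 in normal prostate, at least 15.3-fold (adjusted p = 0.0139). Cdh2, N-cadherin, was the other, at 7.73 in T1525, against 6.35 and 6.33 in normal prostate (adjusted p = 0.0155). Vim, vimentin, was 13.43 in T1525, between the 12.38 and 13.59 of normal prostate (adjusted p = 0.651).

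Markers of the wall of the gland were mostly at background in T1525. All 12 smooth muscle markers were called lower, 8 of them at background in T1525, and their intensities summed to 1568 in T1525, against 177032 and 170114 in normal prostate (one of the 12, Ckm, is a gene of skeletal muscle). Acta2, smooth muscle actin, was 6.40 in T1525, against 15.74 and 15.61 in normal prostate, at least 503-fold lower (adjusted p = 0.00209), and 14.72 in T23. Falls of at least 454-fold and at least 286-fold were found for Actg2, the gamma actin of visceral muscle, and Mylk, the kinase that starts its contraction (adjusted p = 0.00209 and 0.00212). Tpm2, a tropomyosin, was 6.20 in T1525, against 15.26 and 15.28 in normal prostate, at least 379-fold lower (adjusted p = 0.00209), and 13.03 in T23. Of 19 fibroblast and matrix genes 14 were called lower and 0 higher, with sums of 1792 in T1525, against 50046 and 99138 in normal prostate. Dcn, decorin, was 6.26 in T1525, against 14.23 and 15.16 in normal prostate, at least 255-fold lower (adjusted p = 0.00326). Of 37 collagen chains 13 were called lower and 2 higher, with 0 higher after either other scaling. Col6a1 was 6.08 in T1525, against 11.99 and 12.87 in normal prostate, at least 52.8-fold lower (adjusted p = 0.00453). Serpinh1, the collagen chaperone, was 6.24 in T1525, against 12.21 and 13.04 in normal prostate, at least 60.8-fold lower (adjusted p = 0.0042), and 14.51 in T23. Col4a2 and Col4a1, chains of basement membrane collagen, were at least 84.8-fold and 44.9-fold lower. Their folds were at least 134 and 69.4 without normal 1, and at least 53.7 and 29.1 without normal 2.

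Markers of other cell types carried by the normal arrays were low in T1525 too. Skeletal muscle is not among the parts of the gland named above, and its source in the normal samples was not tested. Of 12 skeletal muscle markers 11 were called lower and 0 higher, led by Acta1 (at least 321-fold, adjusted p = 0.00212). Of 14 endothelial markers 8 were called lower, and Kdr, the receptor of VEGF, was called higher. Kdr was 7.69 in T1525, against 6.13 and 6.48 in normal prostate (at least 1.98-fold, adjusted p = 0.027), with normal prostate at background, and the call was lost with median scaling (adjusted p = 0.0649, within 0.0112 to 0.0649 over the alternatives). Pecam1, Cdh5, Emcn and Vwf were among the genes called lower, while Tie1, Egfl7, Tek, Flt1 and Plvap were not called. Of 20 leukocyte markers 8 were called lower and 0 higher, and 3 were above background in T1525. Normal 2 was the higher normal array for 18 of these 20, by a median of 1.90, and the list summed to 1682 in T1525, against 27853 and 88090 in normal prostate. Cd52, a surface protein of lymphocytes, was 6.85 in T1525, against 13.36 and 13.15 in normal prostate, 84.9-fold lower (adjusted p = 0.00298). Cd74, the chaperone of MHC class II molecules, was 6.13 in T1525, against 11.78 and 13.90 in normal prostate, at least 70.5-fold lower (adjusted p = 0.0165), with at least 147-fold without normal 1 and at least 33.9-fold without normal 2. Hba-a1, alpha globin, was 6.87 in T1525, against 14.82 and 15.26 in normal prostate, 288-fold lower (adjusted p = 0.00298). Of 9 adipose markers 5, of 10 red cell and mast cell markers 4 and of 7 nerve and glia markers 3 were called lower, with 0 higher in each. The part of these cell types in other falls was not tested.

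The largest rise of all was in Sox21, a transcription factor of the SoxB2 group known from neural and ectodermal progenitors. It was 14.66 in T1525, against 6.25 and 8.01 in normal prostate, at least 158-fold higher (limma, SE 0.77, adjusted p = 0.00924). The fold was at least 249 without normal 2 and 100 without normal 1. Sox21 was 6.32 in T23, at background. Sox2, a SoxB1 factor of pluripotent and neural cells, was 10.41 in T1525, against 6.48 and 6.65 in normal prostate, both at background, at least 13-fold higher (adjusted p = 0.0032), and 6.94 in T23. For Foxa2, Plk1, Ezh2, Dnmt3b, B2m, Hoxb7, Igfbp7, Mthfd1 and Kitl, dimmer probes at or near background were not called. The same held for Cdh2, Col6a1, Cxcl12, Dkk3, Dnajc6, Efna5, Fas, Insig1, Slc39a4 and Tubb2b. Foxa2, a forkhead factor of endoderm, was 10.15 in T1525, against 6.14 and 6.16 in normal prostate, at least 10.9-fold higher (adjusted p = 0.003), and 6.44 in T23. Otx1, a homeobox factor of the anterior brain, was 10.51 in T1525, against 6.23 and 6.32 in normal prostate, at least 14.0-fold higher (adjusted p = 0.003), and 8.66 in T23. Sox9 went down: 9.37 in T1525, against 12.73 and 12.70 in normal prostate, 10.2-fold (adjusted p = 0.00356), and 12.56 in T23.

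Neuroendocrine differentiation is known in TRAMP tumors, and its genes were mixed. Of 23 neuroendocrine and neuronal genes 3 were called higher (Sox2, Foxa2 and Insm1) and 5 lower, with a median difference of 0.00. Over all genes 12.5% were called higher and 10.6% lower, and the median was also 0.00. Insm1, a zinc finger factor of neuroendocrine cells, was 7.57 in T1525, against 6.11 and 6.14 in normal prostate (adjusted p = 0.0143). Syp, synaptophysin of secretory vesicles, was 6.79 in T1525, against 9.45 and 9.66 in normal prostate, 6.80-fold lower (adjusted p = 0.00545). Stmn2, a stathmin of neurons, was at background in T1525, at least 6.82-fold lower (adjusted p = 0.00397). Chga, chromogranin A, was 6.85 in T1525, against 6.38 and 6.37 in normal prostate, and was not called (adjusted p = 0.169). Of 21 genes of stem and progenitor cells 7 were called higher and 4 lower as deposited, and 4 and 4 with either other scaling. Klf4, a Krüppel-like factor, was 11.51 in T1525, against 7.74 and 8.57 in normal prostate, 10.2-fold higher (adjusted p = 0.0126). Psca, the prostate stem cell antigen, was 7.81 in T1525, against 12.07 and 14.55 in normal prostate, 45.2-fold lower (adjusted p = 0.0362). Its fold was 107 without normal 1 and 19.1 without normal 2, and the call was lost with median scaling and cyclic loess (adjusted p = 0.0518 and 0.0519, within 0.0135 to 0.0519 over the alternatives).

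Hox genes give cells their place along the body axis. Of 36 measured, 5 were called higher and 12 lower. All 5 higher genes were of the A cluster (Hoxa2, Hoxa5, Hoxa7, Hoxa9 and Hoxa11), and all 12 lower genes were of the B or D cluster. Hoxa5 was 11.68 in T1525, against 8.61 and 8.97 in normal prostate, 7.42-fold higher (adjusted p = 0.00666). Hoxa9 was 10.19 in T1525, against 7.43 and 7.26 in normal prostate, 7.18-fold higher (adjusted p = 0.00489). Hoxa7 was 12.37 in T1525, against 9.49 and 10.08 in normal prostate, 6.01-fold higher (adjusted p = 0.0129). Beside Hoxb13, Hoxb7 was 6.44 in T1525, against 11.50 and 11.09 in normal prostate, at least 24.1-fold lower (adjusted p = 0.00327). Hoxd8 was 5.94 in T1525, against 10.63 on both normal arrays, at least 15.2-fold lower (adjusted p = 0.00298). Hoxd9 was 6.29 in T1525, against 10.18 and 10.10 in normal prostate, at least 10.8-fold lower (adjusted p = 0.00303). In T23 Hoxb7, Hoxd8 and Hoxd9 were 8.86, 9.86 and 8.47, all above background. The split by cluster was noticed in these values and was not tested.

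**Figure D4:**
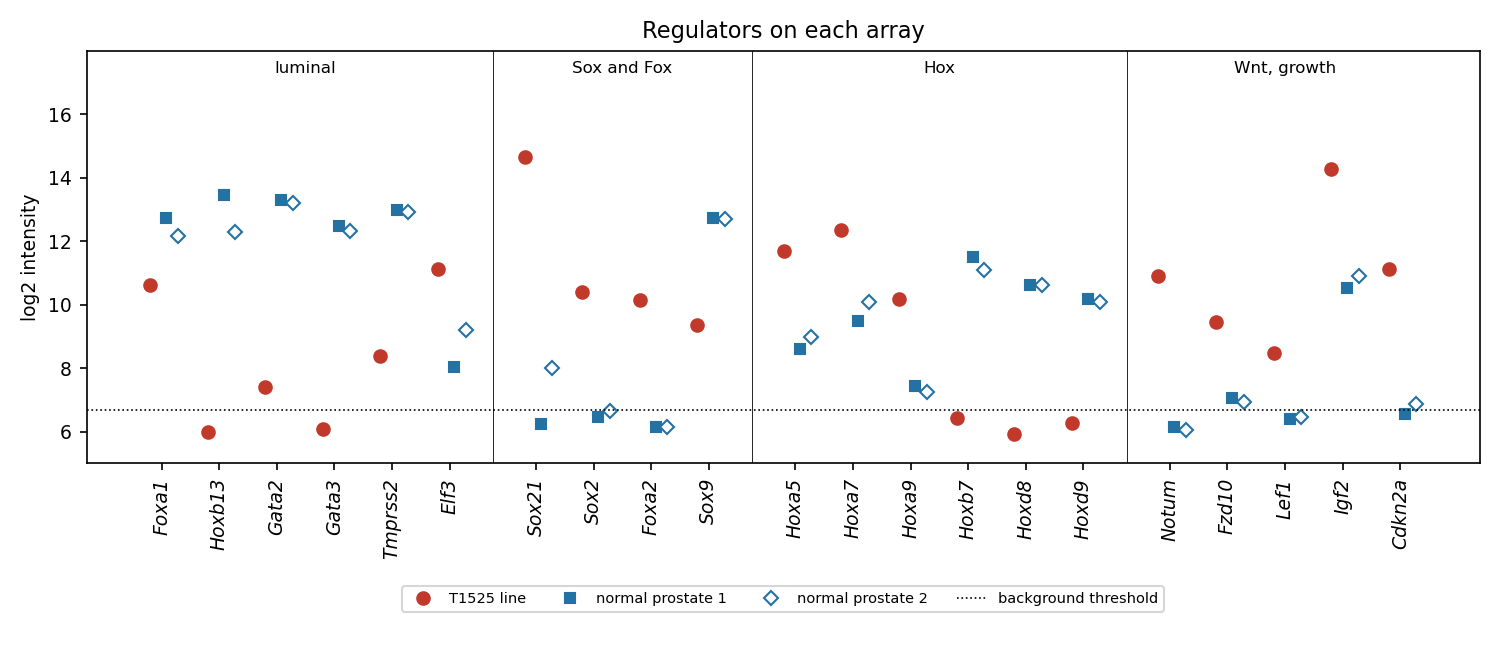
Log2 intensity (y axis) of 21 regulators on each array: red circles T1525, filled squares normal 1, open diamonds normal 2. The dotted line is the background threshold of 6.70. Hoxb13, Gata3 and the HoxB and HoxD genes lie at background in T1525, while Sox21, Sox2, Foxa2, Notum and Cdkn2a lie far above both normal arrays.

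Of 35 growth factors 7 were called higher and 7 lower as deposited, and 5 higher and 10 lower with either other scaling. Of 31 receptors 2 were called higher and 10 lower. Igf2, the imprinted fetal insulin-like growth factor, was 14.26 in T1525, against 10.53 and 10.91 in normal prostate, 11.7-fold higher (limma, SE 0.24, adjusted p = 0.00483). It was 6.69 in T23, at background. Igf1, its postnatal relative, was 11.66 in T1525, against 8.68 and 9.77 in normal prostate, 5.38-fold higher (adjusted p = 0.0408). Igf1r, the receptor of both, was 7.47 in T1525, against 8.62 and 8.71 in normal prostate, 2.29-fold lower (adjusted p = 0.0221), and Igf2r, which clears Igf2, was 2.21-fold lower (adjusted p = 0.031). Of 6 binding proteins of these factors 4 were called lower and 0 higher. Igfbp7 was 6.01 in T1525, against 13.59 and 14.48 in normal prostate, at least 161-fold lower, and Igfbp5 was 6.37 in T1525, against 13.51 and 14.26 in normal prostate, at least 145-fold lower (adjusted p = 0.00327 and 0.00303). Of 20 imprinted genes 2 were called higher, Igf2 and Ppp1r9a (2.13-fold, adjusted p = 0.0264), and 3 lower, Ndn, Impact and Igf2r. With either other scaling 1 was called higher. As deposited, the shares over all genes were 12.5% higher and 10.6% lower. Ndn, necdin, was at least 24.2-fold lower (adjusted p = 0.00424). Inhbb, the beta B subunit of activin and inhibin, rose 7.45-fold (adjusted p = 0.00666). Kitl, the ligand of Kit, was 8.02 in T1525, against 6.25 and 6.21 in normal prostate (at least 2.50-fold, adjusted p = 0.00933), and Kit was at least 7.91-fold lower (adjusted p = 0.00389). Egf, epidermal growth factor, was 6.36 in T1525, against 13.43 and 12.46 in normal prostate, at least 75.6-fold lower (adjusted p = 0.00483), and its receptor Egfr was 3.82-fold lower (adjusted p = 0.0238). Vegfa was 10.13 in T1525, against 10.19 and 10.07 in normal prostate (adjusted p = 0.995).

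In the Wnt pathway 4 of 38 genes were called higher and 8 lower, beside 12.5% and 10.6% of all genes. Notum, a secreted enzyme that inactivates Wnt ligands and is itself a target of the pathway, was 10.90 in T1525, against 6.16 and 6.06 in normal prostate, at least 18.4-fold higher (adjusted p = 0.00298). Fzd10, a Wnt receptor, was 9.46 in T1525, against 7.07 and 6.94 in normal prostate, 5.49-fold higher (adjusted p = 0.00602). Lef1, a nuclear factor of the pathway, was 8.48 in T1525, against 6.41 and 6.47 in normal prostate, at least 3.44-fold higher (adjusted p = 0.00755). In T23 these were 5.85, 6.22 and 6.79. The secreted modulators Rspo3, Dkk3 and Wif1 were lower, at least 18.0-fold, at least 14.0-fold and 13.5-fold (adjusted p = 0.00298, 0.00646 and 0.00575). Of 19 Notch genes 4 were called higher and 3 lower as deposited, 1 and 4 with median scaling, and 2 and 3 with cyclic loess. Hes6, a bHLH factor of the Hes family, was 14.57 in T1525, against 12.35 and 12.11 in normal prostate, 5.06-fold higher (adjusted p = 0.00755), and the receptor Notch1 was 8.24-fold lower (adjusted p = 0.0121).

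Other genes among the 15 largest rises had roles of several kinds. Ly6g6c, a small GPI-anchored protein, was 12.66 in T1525, against 7.02 and 7.72 in normal prostate, 39.3-fold higher (limma, SE 0.35, adjusted p = 0.00458). Lor, loricrin of the cornified envelope of skin, was 12.87 in T1525, against 7.78 and 8.01 in normal prostate, 31.5-fold higher (adjusted p = 0.00298). Both were at background in T23, at 6.09 and 6.56. Outside the 15, and picked after the values were seen, Sult2b1, a cholesterol sulfotransferase of skin, rose 5.18-fold (adjusted p = 0.0124). Dlx3, a homeobox factor of skin and hair, rose 6.13-fold (adjusted p = 0.00555). The zinc finger gene Zfp750 went the other way. It was at background in T1525, at 6.27, against 8.80 and 8.84 in normal prostate, at least 4.34-fold lower. Of 45 keratins 4 were called higher, among them Krt16 (at least 2.41-fold, adjusted p = 0.0205), and 3 lower. Of all genes, 12.5% were called higher and 10.6% lower. Krt10, a keratin of skin, was 8.59 in T1525, against 8.08 and 7.41 in normal prostate, and was not called (adjusted p = 0.181), and Krt1, its partner, was at background on these arrays. S100a14, an epithelial calcium-binding protein, was 13.61 in T1525, against 7.57 and 10.10 in normal prostate, and missed the threshold (adjusted p = 0.0523). Among axon guidance genes, 8 of 48 semaphorins, ephrins and their receptors were called higher and 7 lower, with 4 higher and 8 lower after either other scaling. Epha3, an ephrin receptor, rose 6.55-fold (adjusted p = 0.00477). Sema4a, a semaphorin, was 7.23 in T1525, against 13.61 and 13.28 in normal prostate, 74.4-fold lower (adjusted p = 0.00298). Efna5, an ephrin, and Nrp1, a semaphorin co-receptor, were at least 19.5-fold and 18.7-fold lower (adjusted p = 0.00527 and 0.00785). Of 54 protocadherins 4 were called higher and 2 lower. Nrcam, a neuronal adhesion molecule, was 11.87 in T1525, against 6.25 and 6.32 in normal prostate, at least 35.9-fold higher (adjusted p = 0.00298). Robo1, a receptor of Slit ligands, was 13.13 in T1525, against 8.26 and 8.40 in normal prostate, 27.9-fold higher (adjusted p = 0.00298). In T23 they were 5.97 and 8.05. Otop1, a proton channel, was 11.74 in T1525, against 5.81 on both normal arrays, at least 32.8-fold higher (adjusted p = 0.00298). Mgarp, a mitochondrial protein, was 12.39 in T1525, against 6.49 and 6.89 in normal prostate, at least 48.3-fold higher (adjusted p = 0.003). Misp, an actin-binding protein of the spindle, rose at least 33.4-fold, and Fetub, a fetuin that inhibits proteases, at least 29.9-fold (adjusted p = 0.003 and 0.00298).

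Enzymes of glycolysis and genes of hypoxia were called higher in 15 of 25 and lower in 3, but in 6 and 8 after scaling to equal medians and cyclic loess. Ankrd37, a target of HIF, was 11.12 in T1525, against 7.37 and 7.30 in normal prostate, 13.8-fold higher (adjusted p = 0.00303). Pfkp, a phosphofructokinase, was 12 in T1525, against 8.47 and 9.06 in normal prostate, 9.43-fold higher (adjusted p = 0.00828). Egln3, a prolyl hydroxylase that marks HIF, was 13.07 in T1525, against 8.27 and 10.11 in normal prostate, 14.6-fold higher (adjusted p = 0.0418). Its fold was 7.74 without normal 1 and 27.7 without normal 2, and its call was lost with median scaling and cyclic loess (adjusted p = 0.0738 and 0.0709, within 0.0175 to 0.0738 over the alternatives). Slc2a3, a glucose transporter, fell 6.46-fold (adjusted p = 0.0068). Of 19 genes of sterol and fatty acid synthesis 8 were called higher, led by Insig1 (5.43-fold) and Cyp51 (4.46-fold), and 1 lower, Scd1, a desaturase. Of 23 serine, glycine and one-carbon genes 8 were called higher, led by the folate enzyme Mthfd1 (7.28-fold, adjusted p = 0.00491), and 3 lower.

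Of 25 genes of folding and transport in the endoplasmic reticulum 9 were called lower, 0 higher and 16 not called, with 10 lower after either other scaling. Pdia4, a disulfide isomerase, was 10.73 in T1525, against 13.40 and 13.04 in normal prostate, 5.60-fold lower (adjusted p = 0.00847). Xbp1, the factor of secretory cells, was 12.08 in T1525, against 14.28 and 14.26 in normal prostate, 4.56-fold lower (adjusted p = 0.00671). Herpud1 was 5.35-fold lower (adjusted p = 0.00887). Of 32 glutathione, aldehyde and antioxidant enzymes 9 were called lower and 3 higher, with 10 lower and 1 higher after either other scaling. Gpx3, the secreted glutathione peroxidase, was 6.38 in T1525, against 14.16 and 13.98 in normal prostate, at least 165-fold lower (adjusted p = 0.00242). Gsta3, Aldh2 and Gstm2 were 24.4-fold, 22.2-fold and 20.5-fold lower.

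Of 14 MHC class I and peptide loading genes 4 were called lower and 0 higher. B2m, the light chain of every class I molecule, was 10.74 in T1525, against 15.62 and 15.55 in normal prostate, 28.8-fold lower (in limma, SE 0.19, adjusted p = 0.00298). It was 14.15 in T23. Tap2, of the peptide transporter, was 8.56 in T1525, against 11.13 and 11.50 in normal prostate, 6.76-fold lower (adjusted p = 0.0072). H2-K1, a classical heavy chain, was 10.14 in T1525, against 10.63 and 11.35 in normal prostate, and was not called (adjusted p = 0.197). Class I genes are also carried by the leukocytes of the tissue, whose markers fell, and their part in these values was not tested. Of 22 interferon-stimulated genes 2 were called lower and 0 higher, Ifit2 (3.55-fold, adjusted p = 0.00922) and Irf9. Of 32 chemokines, cytokines and acute-phase genes 9 were called lower and 0 higher. Beside these counts, 10.6% of all genes were called lower and 12.5% higher. Cxcl12, a chemokine of stroma, was 6.17 in T1525, against 11.48 and 11.88 in normal prostate, at least 31.5-fold lower (adjusted p = 0.003). Lcn2, lipocalin 2, was 6.03 in T1525, against 12.52 and 15.69 in normal prostate, at least 169-fold lower (adjusted p = 0.0262), with at least 508-fold without normal 1 and at least 56.3-fold without normal 2. Saa3, an acute-phase protein, was 6.86 in T1525, against 7.14 and 14.51 in normal prostate, so that the normal arrays differed more than T1525 did from normal 1.

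Differences were also set out by chromosome, a view chosen after the values were seen. Over the 335 detected genes of chromosome 12 the median difference was 0.68, with 138 genes (41.2%) called higher and 32 (9.55%) lower, and 70.7% of the genes lay above 0. Chromosome 13 had a median of 0.28 over 351 genes, with 27.6% called higher, and chromosome 18 a median of 0.21. The medians of the other 17 chromosomes, without Y, lay between -0.02 and 0.11, with 15.1% to 21.2% called higher. For chromosome 12 the median was 0.65 against normal 1 alone and 0.73 against normal 2 alone, 0.44 after median scaling and 0.42 after cyclic loess. Cut into 5 runs of 67 genes along the chromosome, its medians lay between 0.39 and 0.86. In T23 the medians were -0.03 for chromosome 12, -0.00 for chromosome 13 and 0.19 for chromosome 18. With median scaling and cyclic loess, chromosome 13 was at 0.05 under both in T1525, and chromosome 18 at 0.00 and 0.05. The medians of the other 17 chromosomes moved down too. They lay between -0.21 and -0.08 with median scaling and between -0.22 and -0.08 with cyclic loess. Genes of one chromosome are not independent, no test was made, and the arrays measure RNA, not DNA. Of the Y-linked genes above background, Eif2s3y, a translation factor, was 7.72 in T1525, against 10.36 and 10.44 in normal prostate, 6.39-fold lower (adjusted p = 0.00491). Kdm5d, a histone demethylase, was at background in T1525, at least 2.60-fold lower (adjusted p = 0.0155). In T23 Eif2s3y and Kdm5d were both at background, at 6.22 and 6.06.

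**Figure D5:**
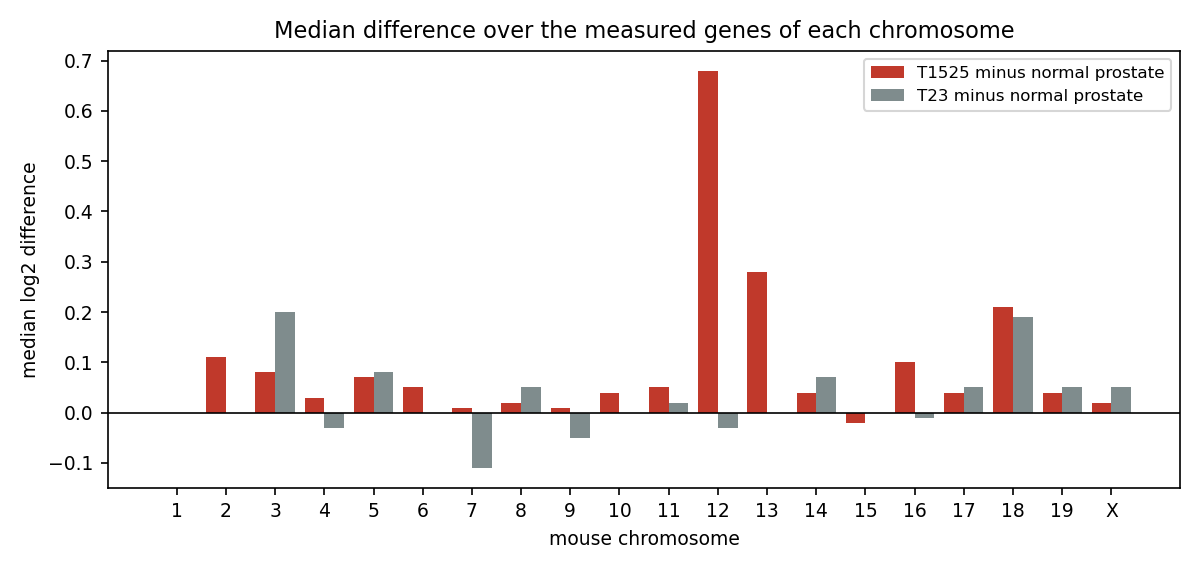
Median log2 difference (y axis) over the genes of each mouse chromosome (x axis) that were above background in T1525 or on a normal array, for T1525 (red) and T23 (grey), each minus the mean of the normal arrays. Both lines share the normal arrays. Chromosome 12 reaches 0.68 in T1525 and is at -0.03 in T23.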

How the data were processed

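RNA of 4 mouse samples was hybridised to Illumina bead arrays, 1 array per sample. The deposited values are intensities on a linear scale that the authors normalized; per the submitters' processing notes BeadStudio was used, with its version and method not given in the sources used here. Sorted values of the 4 columns differed by a median of 0.183% and at most 3.73%, so the values behave as quantile-normalized. A table of signals before normalization has 8 value columns named by slide position, which the labels tie to no sample; it was not used, and slide was not tested as a batch. The number of arrays limits the precision.

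The log2 of the deposited intensity was tested with limma 3.58.1 in R 4.3.3 on all 24613 probes, in a fit of 3 groups (T1525, T23, normal prostate), two-sided, with 1 residual and 3.14 prior degrees of freedom. T1525, a lone array, was assumed to vary like the normal arrays. Printed SEs are of the fitted log2 difference; beside an "at least" fold, the adjusted p is that of the difference without the threshold. The background threshold leaves 0.01 of a normal curve above it, centred on the most frequent log2 intensity (6.12) with the SD of the values below that (0.249). An "at least" fold is computed with values under the threshold set to it. List medians are of differences so computed. Of the probes, 20984 had 1 gene symbol in the platform's table, 1 had several and 3628 had none; 3728 genes had several probes, of which 1001 had a called and an uncalled one and 2 had probes called in opposite directions. Promoter sequences and gene positions came from RefSeq, GRCm38.p6.

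The 35 gene lists and 30 gene families were chosen with earlier results of these data known. Of 769 listed symbols 683 had a probe. Named by rule were the 15 largest differences in each direction among called genes beyond both normal arrays, the 4 largest per list, the 3 largest per family and 36 fixed genes, of which 30 had a probe: 245 genes in all, 79 higher, 143 lower and 23 not called. Other genes are members of the same lists, chosen after their values were seen. No list was tested. The fit was also run on simulated data in which T1525 varied like the normal arrays. That run therefore cannot check this assumption. Other scalings, filters, thresholds, priors and probe choices, T23 left out and each normal array left out were tried. Plots were made in Python 3.11.15 (matplotlib 3.10.9).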

Additional observations from a re-analysis of the deposited data

Results flagged for a closer look

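For 10 of the named genes T1525 lay at least 2-fold beyond both normal arrays on one side and T23 at least 2-fold beyond them on the other. The difference between the lines was not tested, each line has 1 array, and both differences share the normal arrays. Differences are log2, each line minus normal prostate, with values under the background threshold set to it. Of these 10, Lor, Igf2, Dnajc6, Pkp1 and Dsg2 were higher in T1525. Lor, loricrin, differed by 4.98 in T1525 and by -1.19 in T23. Igf2, the fetal growth factor, differed by 3.54 in T1525 and by -4.01 in T23. Dnajc6, auxilin of clathrin uncoating, differed by 2.87 in T1525 and by -1.51 in T23. The desmosomal genes Pkp1 and Dsg2 differed by 2.36 and 1.42 in T1525 and by -1.55 and -1.15 in T23.

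The others were lower in T1525. Serpinh1, the collagen chaperone, differed by -5.93 in T1525 and by 1.89 in T23, and Axl, the receptor kinase, by -5.81 in T1525 and 1.86 in T23. Lgals1, galectin 1, differed by -4.09 in T1525 and by 3.57 in T23, and Dkk3, a secreted Wnt modulator, by -3.80 in T1525 and 3.01 in T23. Ifit2, an interferon-stimulated gene, differed by -1.83 in T1525 and by 1.59 in T23. Lgals1 was 8.10 in T1525 and 15.75 in T23, against 11.87 and 12.49 in normal prostate.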

How the results depend on the processing

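As deposited, 54.2% of the limma calls were to the higher side. Median scaling, on the probes above background on every array, gave 1284 genes higher and 1954 lower (39.7% higher). Cyclic loess gave 1366 and 2019 (40.4%). The median of the detected genes was 0.11 as deposited, -0.19 with median scaling and -0.14 with cyclic loess. With the other limma alternatives (probes above background on at least 1 or 2 arrays, stricter and looser background tails, an intensity trend in the prior, the mean of a gene's probes, T23 left out) the calls ranged from 1764 to 2003 higher and from 1417 to 1798 lower. Without one normal array there is no residual degree of freedom and no limma test. By size alone, 1708 to 1825 genes were then at least 2-fold higher and 1840 to 1870 at least 2-fold lower, since T1525 has to pass 1 array in place of 2. No paired analysis was possible because the labels pair no T1525 sample with a normal sample. Over the named genes and 9 alternatives with a test, no called difference turned its direction; 30 times a call was lost and 15 times one was gained. The intensity of a probe near the threshold of 6.70 limits the folds of dim genes.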

Other observations

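Apart from the tubulins, most members of the families below were not called. Their shares are to be read beside the 12.5% of all genes called higher and the 10.6% called lower. For families detected almost in full, the nearer base is the 10357 genes above background in T1525 or on a normal array. Of these, 2001 were called higher and 1689 lower. Solute carriers were called higher in 29 and lower in 51 of 313. Slc39a4 and Slc30a2, zinc transporters, were lower: Slc39a4 was 7.24 in T1525, against 10.94 and 11.91 in normal prostate (18.1-fold, limma adjusted p = 0.0104), and Slc30a2 was 8.11 in T1525, against 12.02 and 12.06 in normal prostate (15.2-fold, adjusted p = 0.003). Subunits of potassium, sodium and calcium channels were called lower in 17 of 103 and higher in 1, and cytochrome P450 enzymes lower in 10 of 64 and higher in 0. Cyp2f2 was 6.82 in T1525, against 11.55 and 11.39 in normal prostate, 25-fold lower (adjusted p = 0.00298). Matrix proteases and their inhibitors were called lower in 10 of 68 and higher in 4, with Mmp2 at least 40.4-fold lower and Timp3 20.3-fold lower (adjusted p = 0.00525 and 0.00591).

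Heat shock proteins and chaperonins were called higher in 18 of 70 and lower in 8. Cct2, Cct3, Cct5, Cct6a, Cct7 and Cct8, subunits of the chaperonin that folds tubulin and actin, were all among those called higher, while the small heat shock proteins Hspb8 and Hspb1 were 18.7-fold and 7.13-fold lower (adjusted p = 0.003 and 0.00895). Tubulins were called higher in 8 of 18 and lower in 1. Tubb2b was 13.54 in T1525, against 11.22 and 11.14 in normal prostate, 5.14-fold higher (adjusted p = 0.00609). Of oxidative phosphorylation subunits, 64 of 70 were above background in T1525 or on a normal array. As deposited 14 of the 70 were called higher and 2 lower, with 7 higher after median scaling and 11 after cyclic loess. The lower pair was Cox6a2 and Cox8b, forms of striated muscle, at least 25.4-fold and 9.62-fold lower (adjusted p = 0.00298 and 0.00363). Creb3 and Tacc2 had probes called in opposite directions: the differences of the 2 called probes were 1.10 and -1.05 for Creb3 and 1.06 and -1.68 for Tacc2.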
